A study of Homo sapiens with 8 samples.

Results

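MIAT, the gene of the long noncoding RNA also called GOMAFU, and 5 proteins reported elsewhere to bind that RNA (QKI, SF1, SRSF1, CELF3 and EZH2) were followed through the response of a human neuroblastoma line to interferon-γ. The 6 genes were taken by symbol from the 26372 genes of the deposited table, and all 6 were found. The cells were BE(2)-M17, an established neuroblastoma line of catecholaminergic character, and 8 libraries were measured. In 4 libraries the cells were untreated, and in 4 they had been exposed for 24 h to 10 ng/ml of interferon-γ (IFN-γ), the interferon that activated lymphocytes secrete. All 8 libraries carry the same line label and no genetic change is named, so the data show how these genes moved with IFN-γ and not what a gain or loss of MIAT does. The series title addresses the relation of GOMAFU to interferon response pathways in neurons.

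MIAT RNA is made mainly in neurons, is spliced and polyadenylated like a messenger RNA, and is held in the nucleus, where it gathers in distinct spots. It carries repeats of UACUAAC, the sequence that the branch point of an intron has in its ideal form. SF1 binds branch points early in splicing, QKI is a STAR-type protein that binds ACUAA-containing sites and regulates alternative splicing, SRSF1 is an SR protein that promotes exon inclusion, and CELF3 is a CELF protein of neurons. EZH2 is the methyltransferase of Polycomb repressive complex 2 (PRC2), which places the repressive mark H3K27me3 and has been found with many long noncoding RNAs.

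The repeats are shown because they are the feature by which SF1 and QKI are thought to contact this RNA. In GENCODE release 29 on GRCh38, MIAT lies on the plus strand at chr22:26646428-26676475 as a lincRNA with 23 annotated transcripts. The longest, of 10143 nt in 5 exons, holds 7 copies of TACTAAC on its own strand, all in exon 5 and within 807 nt, and 1 copy on the opposite strand. Below, the DNA letters of the plus strand are given 5′ to 3′, with the TACTAAC copies in capitals. The stretches lie at chr22:26671399-26671569 (first cluster), chr22:26672013-26672059 (single copy) and chr22:26672162-26672245 (second cluster).
MIAT first cluster: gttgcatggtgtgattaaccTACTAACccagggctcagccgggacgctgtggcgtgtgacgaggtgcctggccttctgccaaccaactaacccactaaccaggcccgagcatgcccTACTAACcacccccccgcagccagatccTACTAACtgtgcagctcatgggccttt
MIAT single copy: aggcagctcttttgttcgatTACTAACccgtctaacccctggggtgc
MIAT second cluster: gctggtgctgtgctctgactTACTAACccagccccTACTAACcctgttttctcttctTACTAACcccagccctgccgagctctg

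The clusters hold 3 copies each. In the second cluster the starts of neighbouring copies are 15 and 22 nt apart, and in the first 96 and 28 nt. Within the whole transcript the shorter ACTAAC, which lies inside TACTAAC, occurs 14 times and ACTAAT 2 times. Only the 4 transcripts of 9943 to 10143 nt hold the 7 copies. The other 19 transcripts, the longest of 3760 nt, hold none, so the repeats belong to the long forms of MIAT, and a gene-level value does not show which form was present.

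Copies of TACTAAC were this many in few other RNAs. Of 1155 other genes whose longest transcript measures 8000 to 12000 nt, 898 hold no copy, 225 hold 1, 29 hold 2 and 3 hold 3. When the longest transcripts of all other genes were divided into adjoining stretches of 171 nt, 0 of 613775 held 3 copies, and 0.376% held at least 1. In stretches of 84 nt, 1 of 1281011 held 3, and 0.183% held at least 1. That 1 stretch is from RF01876, a short entry annotated inside MIAT on the same strand, and it holds the second cluster of MIAT itself. In stretches of 47 nt, 0.0949% held at least 1. The MIAT stretches were cut around its own copies, while the others were laid in fixed steps. A cluster in another RNA could thus be split across a border and be missed. Among 16076 annotated long noncoding RNA genes MIAT ranks second by copies, behind AL033543.1 with 33, and among 12699 tested genes matched to the annotation no other had 7 or more. A match of letters describes the sequence and is no measure of protein binding.

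**Figure D1:**
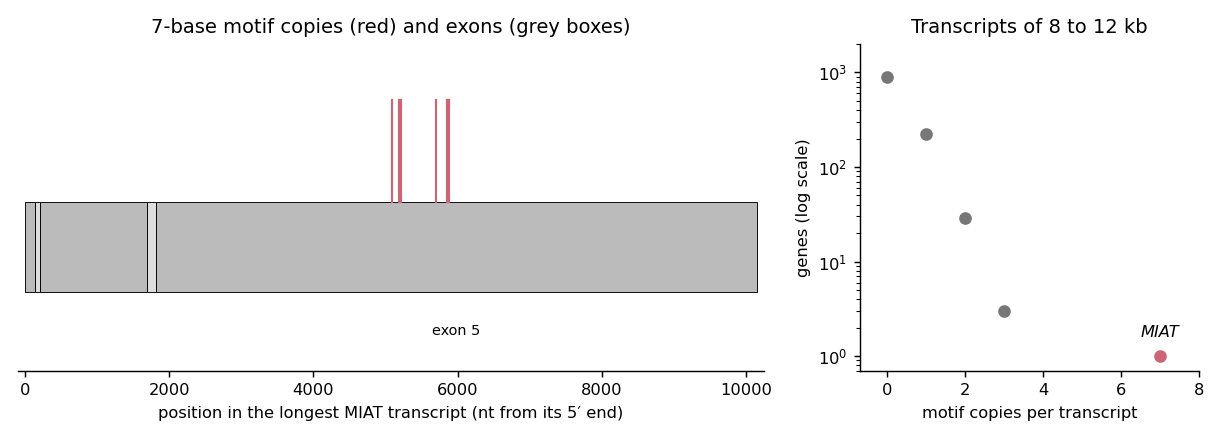
Left, the longest MIAT transcript drawn to scale from its 5′ end, with exons as grey boxes and the 7 TACTAAC copies as red lines; all copies lie in exon 5. Right, number of genes (log scale) by copies per transcript among other genes with a longest transcript of 8 to 12 kb (grey), with MIAT in red at 7 copies; the other genes reach 3.

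The annotation also places other features over the repeats. The entries RF01875 and RF01876, of class misc_RNA, lie on the same strand and each span 3 copies, and the antisense lincRNA Z99774.1, on the minus strand at chr22:26667693-26672654, covers all 7. The library kit does not mark strand, so fragments of MIAT and of Z99774.1 in this stretch cannot be told apart in the deposited values.

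The values are FPKM, fragments per kilobase of transcript scaled to the fragments mapped. Whether replicate libraries stem from separate cultures is not stated in the labels, and the p-values therefore measure only the spread among libraries, which could be technical. From the steps between low values the depth was placed at about 13.9 to 20.3 M fragments per library (M, mega), and with the longest transcript as length the MIAT values stood for about 706 to 1665 fragments and those of CELF3 for about 457 to 713. IFN-γ replicate 4 differed most from its group, with a variance 3.54 to 4.44 times the counting variance against the other 3, where all other pairs of a group gave 1.51 to 2.26. The small nucleolar RNA SNORD3A took 5.97% to 57.9% of summed FPKM in untreated libraries and was listed at 0 in each IFN-γ library, so values rescaled to a fixed sum (TPM) moved the median gene by +0.79 on the log2 scale. Against a median of -0.005 in FPKM, changes are given on the FPKM scale, and MIAT lay 0.81 below the median gene in both FPKM and TPM. In TPM without short RNA genes the median gene stood at -0.098, and after quantile normalization at -0.071. The treatment showed in IRF1 (0.584 ± 0.0404 to 125 ± 2.14 FPKM, SD, n = 4) and GBP1 (0.024 ± 0.0106 to 546 ± 15.5). Of 13 markers of sympathoadrenal neuroblastoma cells 12 were tested, with a median log2 change of -0.05. Limma called 4 of them higher, 0 lower and 8 neither way, 33.3% called against 22.3% of all tested genes. At an unadjusted p under 0.05 the counts were also 4 and 0, 33.3% against 34.6%. PHOX2A, CHGA and CHGB were among those that rose (CHGB not after quantile normalization or in TPM without short RNA genes). Of 13 markers of blood, mesenchymal, epithelial, endothelial and glial cells, only DCN and PDGFRB passed the expression filter. The summed level of the 13 ran from 145.6 to 155.3 FPKM in untreated and from 153.7 to 196.6 in IFN-γ libraries, and CD3E was listed at 0 in all 8. PDGFRB rose from 8.20 ± 0.442 to 21.0 ± 1.52 FPKM and DCN stood at 140 ± 4.40 and 143 ± 22.3, and their part in the results on MIAT was not tested.

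MIAT fell with IFN-γ. The 4 untreated libraries held 8.18, 8.57, 7.98 and 8.90 FPKM, and the 4 IFN-γ libraries 4.91, 4.99, 4.78 and 4.26 FPKM. The groups did not overlap, and the highest IFN-γ library lay well under the lowest untreated one. The mean went from 8.41 ± 0.411 to 4.73 ± 0.330 FPKM (SD, n = 4), a 1.76-fold lower level and a log2 change of -0.82 (SE 0.07, 95% interval -0.97 to -0.67, limma adjusted p = 1.1e-05). By exact permutation of the libraries, two-sided, p was 0.0286, which is the smallest that 4 against 4 allow. Ranked from the highest of 13598 tested genes, MIAT stood between 6831 and 7224 in untreated libraries and between 8924 and 9296 in IFN-γ libraries. Its change was among the lower ones of the whole table, since 134 tested genes (0.985%) had a lower change and 89 of the 1230 genes called lower fell further. In TPM the change was -0.02 (limma adjusted p = 0.943), which is the fall of 0.81 against the moved median. In bulk RNA, fewer cells with the transcript and less transcript per cell cannot be told apart.

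Among the 5 partners, QKI and CELF3 rose and SF1, SRSF1 and EZH2 did not pass the test. Over all 13598 genes tested, 22.3% were called at a limma adjusted p under 0.05, 13.3% higher and 9.05% lower, and 28.2% had groups of 4 that did not overlap. At an unadjusted p under 0.05 the share of all tested genes was 34.6%, with 18.5% higher and 16.1% lower. Of the 6 genes, 3 were called, 2 higher and 1 lower, and the same 3 had groups that did not overlap.

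QKI was at 4.33, 4.37, 4.06 and 4.36 FPKM in untreated and 5.21, 5.39, 5.50 and 5.39 FPKM in IFN-γ libraries. Each IFN-γ library lay above each untreated one. The mean rose from 4.28 ± 0.1499 to 5.37 ± 0.117 FPKM (SD, n = 4), 1.249-fold, with a log2 change of 0.32 (SE 0.06, 95% interval 0.19 to 0.45, limma adjusted p = 0.0028). The rise is modest for this treatment, as 1139 of the 1809 genes called higher rose more. In TPM computed without short RNA genes it was 0.23, with a limma adjusted p of 0.0763, where the median gene stood at -0.098. QKI produces several proteins that differ at their ends and in place within the cell. GENCODE release 29 lists 17 transcripts for it at chr6:163414000-163578596 on the plus strand. Which transcripts the deposited gene-level values cover is not given.

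SF1, the branch point binding protein and like QKI a STAR-type protein, was far more abundant per length than QKI and did not pass the test. Untreated libraries held 78.8, 78.8, 74.9 and 78.2 FPKM and IFN-γ libraries 76.9, 77.5, 79.4 and 72.1 FPKM. The untreated range lay within that of IFN-γ. The means were 77.7 ± 1.86 and 76.5 ± 3.10 FPKM (SD, n = 4), and the log2 change of -0.02 had a 95% interval of -0.11 to 0.07 (limma adjusted p = 0.725). In TPM the sign turned, with 0.78 (limma adjusted p = 0.0277), which is about the shift of the median gene. The gene lies on the minus strand at chr11:64764606-64778786.

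SRSF1, among the first SR proteins described, was the most abundant of the 6 per length and did not pass. It held 132.6, 133.7, 134.5 and 132.7 FPKM in untreated and 134.5, 138.0, 135.6 and 130.3 FPKM in IFN-γ libraries. Its groups overlapped, with the lowest and the highest library both under IFN-γ. The means were 133.4 ± 0.888 and 134.6 ± 3.201 FPKM (SD, n = 4), and the log2 change was 0.01 (95% interval -0.06 to 0.09, limma adjusted p = 0.828). SRSF1 lies on the minus strand at chr17:58003360-58007346.

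CELF3, the neuronal CELF protein, rose. Untreated libraries held 9.63, 8.81, 9.15 and 8.65 FPKM and IFN-γ libraries 11.96, 11.3, 13.0 and 10.7 FPKM. All 4 IFN-γ libraries lay above all untreated ones, and they spread more widely. The mean went from 9.06 ± 0.433 to 11.7 ± 1.00 FPKM (SD, n = 4), 1.29-fold, with a log2 change of 0.37 (SE 0.07, 95% interval 0.22 to 0.52, limma adjusted p = 0.0029). Of the 1809 genes called higher, 1016 rose more. In TPM without short RNA genes the change was 0.28, with a limma adjusted p of 0.0678, where the median gene stood at -0.098. CELF3 lies on the minus strand at chr1:151702404-151716814.

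EZH2, the catalytic subunit of PRC2, did not pass the test. It held 11.98, 11.4, 10.4 and 11.8 FPKM in untreated and 11.9, 10.9, 11.3 and 12.2 FPKM in IFN-γ libraries. The groups overlapped over most of their range. The means were 11.4 ± 0.725 and 11.6 ± 0.580 FPKM (SD, n = 4), and the log2 change of 0.03 had a 95% interval of -0.11 to 0.16 (limma adjusted p = 0.792). EZH2 lies on the minus strand at chr7:148807383-148884321.

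**Figure D2:**
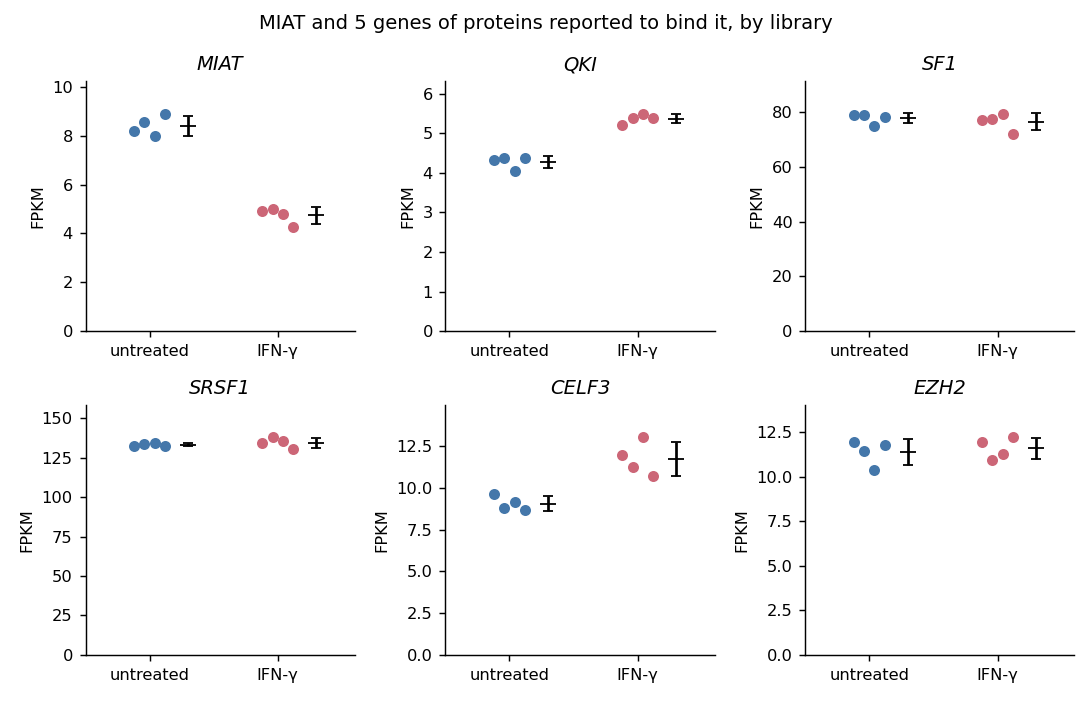
FPKM of the 6 genes in each library, untreated against IFN-γ, with points for the 4 libraries and a mean and SD for each group; each panel has its own scale. The groups of MIAT, QKI and CELF3 do not overlap, and those of SF1, SRSF1 and EZH2 do.

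These levels put the 6 genes in an order that differed between the groups. In every untreated library SRSF1 stood above SF1, SF1 above EZH2, EZH2 above CELF3 and MIAT above QKI. MIAT and CELF3 were not separate there, since their ranges overlapped and MIAT was the higher in 1 of 4 libraries. In every IFN-γ library MIAT was the lowest of the 6, under QKI, which it had exceeded in all 4 untreated libraries. CELF3 was above EZH2 in 3 of 4 IFN-γ libraries, and their ranges overlapped. FPKM divides by a transcript length that can differ from the form present, so the order between genes is approximate.

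The amount of MIAT per amount of each partner's RNA was compared within libraries, which leaves the scaling of a library out. For QKI the ratio was 1.89, 1.96, 1.97 and 2.04 in untreated and 0.942, 0.925, 0.869 and 0.790 in IFN-γ libraries. MIAT was thus the more abundant of the pair in each untreated library and the less abundant in each IFN-γ library, a 2.23-fold lower ratio. For CELF3 the ratio was 0.850, 0.974, 0.872 and 1.03 untreated and 0.411, 0.443, 0.367 and 0.398 with IFN-γ, 2.298-fold lower. The MIAT to EZH2 ratio went from 0.740 ± 0.0389 to 0.410 ± 0.045 (SD, n = 4), 1.81-fold lower. The MIAT to SF1 ratio went from 0.108 ± 0.0043 to 0.0619 ± 0.0027, 1.75-fold lower, and the MIAT to SRSF1 ratio from 0.0630 ± 0.0033 to 0.0352 ± 0.0017, 1.79-fold lower. None of the 5 ratios overlapped between groups, and each had an exact two-sided permutation p of 0.0286, also 0.0286 after Benjamini-Hochberg adjustment over the 5. All 5 share the MIAT values and are not independent, and they are ratios of RNA, not of protein. MIAT alone fell without overlap, and only 0.985% of tested genes had a lower change. A lower mean ratio would therefore be found against nearly any tested gene, and these p-values are no result about the partners.

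**Figure D3:**
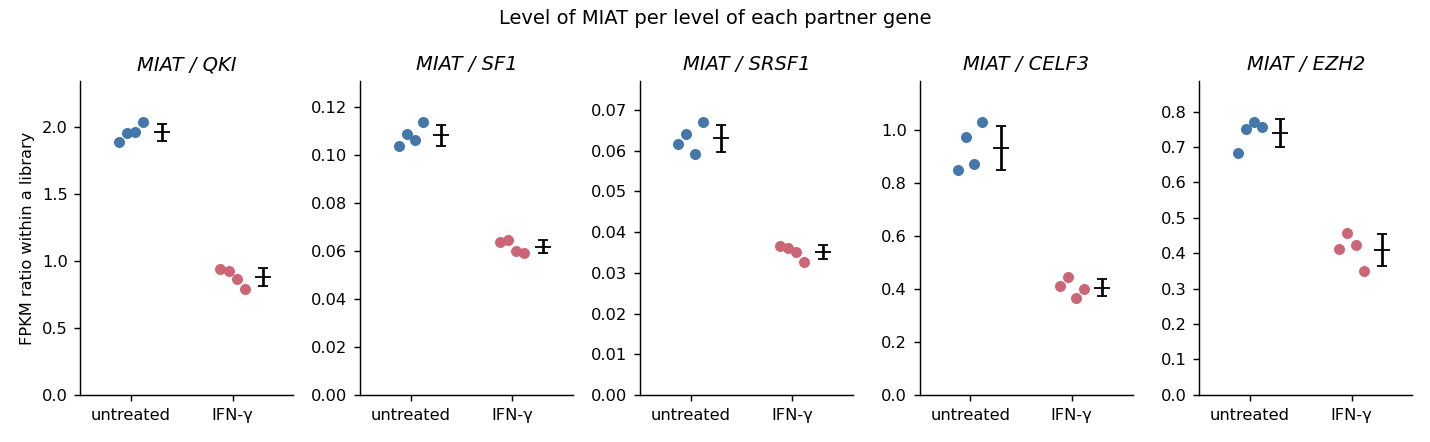
Ratio of MIAT FPKM to that of each partner in every library, untreated against IFN-γ, on linear axes from 0 that differ between panels; points are the 4 libraries and bars the mean and SD. All 5 ratios are lower in each IFN-γ library than in each untreated one, and the ratio to QKI crosses 1.

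The partners' relatives were read from 8 lists of splicing and Polycomb genes. Without the 6 genes themselves the lists hold 79 symbols, of which 78 were in the table and 72 were tested. Of these 7 rose, 3 fell and 62 did not pass the test, that is 13.9% called against 22.3% of all tested genes, with a median log2 change of 0.001 against -0.005. Without IFN-γ replicate 4, 14 rose and 5 fell, all 10 of the first count among them, which is 26.4% of the 72 against 28.3% of all genes tested without that library. The 9 genes added were CBX6, HNRNPA1, HNRNPA2B1, PHF5A, RNF2, SF3B6, SRSF4, SRSF5 and TRA2A.

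Of the STAR-type proteins 4 of 5 were tested, and 1 rose (QKI) and 1 fell. KHDRBS3, an RNA-binding splicing regulator of the Sam68 family, held 18.8, 17.5, 16.6 and 15.1 FPKM untreated and 13.1, 11.5, 9.36 and 10.8 FPKM with IFN-γ. The groups did not overlap, with a log2 change of -0.60 (SE 0.10, limma adjusted p = 0.0016), which in TPM turned positive without passing the test. KHDRBS1, which encodes Sam68 itself, stood at 114 FPKM in both groups, and KHDRBS2 was listed at 0 in all 8 libraries. Of the CELF proteins 4 of 6 were tested and only CELF3 was called, 25.0% against 22.3% of all genes. CELF4 went from 3.47 ± 0.229 to 2.83 ± 0.305 FPKM (SD, n = 4; limma adjusted p = 0.0564). CELF1 held 28.1 ± 0.572 and 27.7 ± 2.15 FPKM. CELF2, under the expression filter, held 0.288 to 0.450 FPKM untreated and 0.120 to 0.213 FPKM with IFN-γ.

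All 14 SR and SR-like factors were tested, and 1 rose and 1 fell beside 12 that did not pass, with a median log2 change of 0.08. The share called was 14.3% against 22.3% of all genes, and at an unadjusted p under 0.05 it was 35.7% against 34.6%. SRSF2, an SR protein that acts at exonic enhancers, held 127 to 138 FPKM untreated and 144 to 175 FPKM with IFN-γ, a log2 change of 0.23 (limma adjusted p = 0.0248). That call was lost without IFN-γ replicate 3 (limma adjusted p = 0.0501) and without untreated replicate 1 (0.0689), 3 (0.0752) or 4 (0.0605), and after quantile normalization (0.262). SRSF12, an SR-related splicing repressor, held 5.43 to 5.66 FPKM untreated and 4.25 to 4.74 FPKM with IFN-γ, a log2 change of -0.30 (limma adjusted p = 0.0061) that turned positive in TPM. Of 10 tested kinases, importers and antagonists of SR proteins, limma called 0 over all 8 libraries, and at an unadjusted p under 0.05 it gave 1, higher, or 10.0% against 34.6% of all genes. HNRNPA1, which opposes SRSF1 at splice sites, held 997 ± 18.9 and 919 ± 20.2 FPKM (SD, n = 4; log2 change -0.12, limma adjusted p = 0.173). Without IFN-γ replicate 4 it was called lower (-0.13, limma adjusted p = 0.0026), also in TPM without short RNA genes (-0.21, limma adjusted p = 0.0041), and in TPM its sign turned. HNRNPA2B1 held 381 ± 7.87 and 392 ± 20.2 FPKM (limma adjusted p = 0.621) and was called higher without that library (0.08, limma adjusted p = 0.0479).

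SF1 hands the branch point over to the U2 snRNP, whose SF3a and SF3b subunits were read next. Of 14 tested genes for branch point and 3′ splice site recognition, 0 rose and 1 fell by limma, 7.14% against 22.3% of all genes. At an unadjusted p under 0.05 there were 2 higher and 3 lower, 35.7% against 34.6%. U2AF1, also on this list, was under the expression filter at 0 to 0.238 FPKM, and whether that stems from the cells or the processing was not tested. SF3A2 held 49.1 to 50.9 FPKM untreated and 43.5 to 47.6 FPKM with IFN-γ, a log2 change of -0.13 (limma adjusted p = 0.0397), positive in TPM. The call was lost on leaving out any 1 of the 8 libraries other than IFN-γ replicate 2 or 4, with limma adjusted p of 0.0591 to 0.108. It was also lost without the trend (limma adjusted p = 0.0786) and with the replicate number as a block (0.0857). SF3B1, the subunit that clamps the branch helix, held 111 ± 1.11 and 119 ± 5.85 FPKM (SD, n = 4; limma adjusted p = 0.158). SF3B6, which touches the branch point adenosine, held 145 to 151 FPKM untreated and 160 to 214 FPKM with IFN-γ (log2 change 0.24, limma adjusted p = 0.072), and without IFN-γ replicate 4 it was called (0.14, limma adjusted p = 0.0025).

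In PRC2 all 11 subunit genes were tested, 2 rose and 0 fell by limma, 18.2% called against 22.3% of all genes (3 and 0 at an unadjusted p under 0.05, 27.3% against 34.6%), with a median log2 change of -0.02. The core did not pass. EED, which reads H3K27me3, held 9.33 ± 0.818 and 10.6 ± 0.771 FPKM (SD, n = 4; limma adjusted p = 0.110). SUZ12, the scaffold, held 19.3 ± 0.905 and 19.1 ± 0.901 FPKM, and EZH1, the other methyltransferase, 7.03 ± 0.397 and 6.25 ± 0.651 FPKM. The called genes were accessory subunits. JARID2, which helps to recruit the complex and can bind RNA, held 15.8 to 16.1 FPKM untreated and 17.3 to 19.6 FPKM with IFN-γ (log2 change 0.25, limma adjusted p = 0.0047). MTF2, a Polycomb-like subunit that binds CpG-rich DNA, held 19.9 to 21.2 and 23.9 to 25.0 FPKM (log2 change 0.24, limma adjusted p = 0.0012). Both calls were lost in TPM without short RNA genes, with limma adjusted p of 0.217 for JARID2 and 0.0975 for MTF2. The median gene stood at -0.098 there.

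The largest change in the Polycomb lists was in PRC1, the complex that ubiquitinates histone H2A. Of 17 tested subunit genes 4 rose and 0 fell by limma, 23.5% called against 22.3% of all genes (5 and 1 at an unadjusted p under 0.05, 35.3% against 34.6%). PCGF5, which defines a noncanonical PRC1, held 7.94, 6.72, 7.41 and 7.39 FPKM untreated and 18.1, 18.3, 17.95 and 18.5 FPKM with IFN-γ. The groups lay far apart, with a log2 change of 1.30 (SE 0.05, limma adjusted p = 4.0e-08). PHC3, a polyhomeotic subunit of canonical PRC1, went from 11.8 ± 0.277 to 16.9 ± 2.01 FPKM (SD, n = 4; log2 change 0.51, limma adjusted p = 0.0012). PCGF1, of another noncanonical PRC1, went from 34.6 ± 1.39 to 43.0 ± 5.29 FPKM (0.31, limma adjusted p = 0.0173), and the call was lost without untreated replicate 4 (limma adjusted p = 0.0536). PHC2, a second polyhomeotic subunit, went from 22.9 ± 0.739 to 26.1 ± 1.03 FPKM (0.19, limma adjusted p = 0.0109), lost in TPM without short RNA genes (0.339) and after quantile normalization (0.0602). Limma called 0 of 4 enzymes (1, higher, at an unadjusted p under 0.05, 25.0% against 34.6% of all genes) that remove H3K27 methylation or acetylate the same residue, among them the acetyltransferases EP300 (24.9 ± 0.596 and 24.1 ± 2.56 FPKM) and CREBBP (16.6 ± 0.293 and 15.7 ± 2.37 FPKM).

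**Figure D4:**
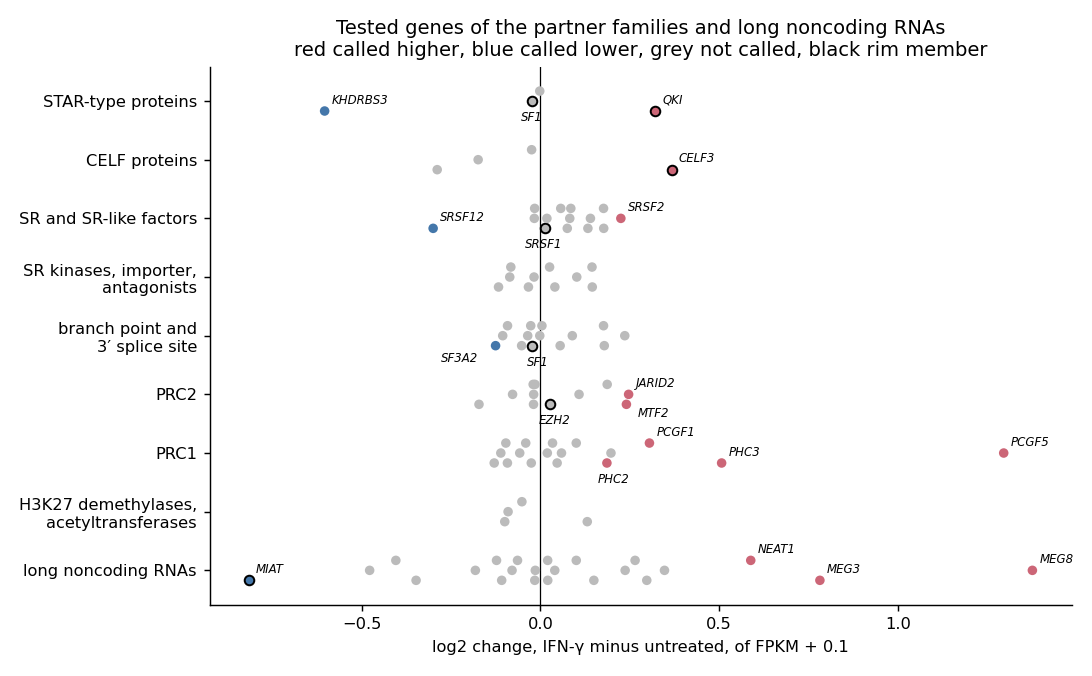
Log2 change with IFN-γ of every tested gene in the lists of partner families and long noncoding RNAs, on the FPKM scale; red is called higher, blue lower, grey not called, and a black rim marks the 6 genes. PCGF5 (1.30) and MEG8 (1.38) lie farthest right and MIAT (-0.82) farthest left; the blue points other than MIAT turn positive in TPM.

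Among 23 tested long noncoding RNAs of a list of 32, 1 was called lower on the FPKM scale, MIAT, and 3 were called higher. NEAT1, the scaffold of nuclear paraspeckles, held 77.9, 84.9, 83.7 and 84.9 FPKM untreated and 133, 132, 124 and 111 FPKM with IFN-γ. Each IFN-γ library lay above each untreated one, with 0.59 as its log2 change (SE 0.06, limma adjusted p = 6.7e-05). MEG3, an imprinted RNA that has been found with PRC2, went from 30.1 ± 0.999 to 51.9 ± 4.18 FPKM (SD, n = 4; log2 change 0.78, limma adjusted p = 4.9e-06). MEG8, from the same imprinted cluster, went from 2.64 ± 1.01 to 6.65 ± 1.58 FPKM (1.38, limma adjusted p = 0.0076). These 3 rises and the fall of MIAT are 4 called of 23, 17.4% against 22.3% of all genes, with a median of 0.02 over the list. MALAT1 was listed at 0 in all 8 libraries, and whether such a 0 stems from the cells or from the processing was not tested.

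Of 5 genes reported elsewhere to respond to MIAT, 2 were tested. VEGFA, an angiogenic growth factor, held 34.2, 31.2, 33.0 and 32.3 FPKM untreated and 41.3, 41.4, 41.6 and 43.6 FPKM with IFN-γ. It rose without overlap, with a log2 change of 0.36 (SE 0.04, limma adjusted p = 9.6e-05). DISC1, a scaffold gene studied in schizophrenia and reported as alternatively spliced under MIAT control, held 4.02 ± 0.409 and 3.56 ± 0.507 FPKM (SD, n = 4; log2 change -0.18, limma adjusted p = 0.311). ERBB4, a neuregulin receptor with reported MIAT-dependent splicing, reached no more than 0.110 FPKM, under the filter, and WNT7B and CRYBB1 were under it too. Gene-level values do not show splicing, so the reported splicing relations were not analysed here.

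Genes around MIAT were called in both directions. Within 1000 kb the table held 12 other genes, of which 9 were tested, 2 rose and 2 fell, so that 44.4% of these few genes were called against 22.3% of all. The median change of the 9 was -0.003. TPST2, a tyrosylprotein sulfotransferase gene with its nearer end 49.7 kb from MIAT, held 5.23, 5.43, 5.77 and 5.76 FPKM untreated and 3.81, 3.30, 4.04 and 3.66 FPKM with IFN-γ. It fell without overlap, with a log2 change of -0.57 (SE 0.08, limma adjusted p = 3.8e-04), positive in TPM. ASPHD2, a hydroxylase-domain gene 201 kb away, rose from 2.47 ± 0.265 to 5.41 ± 0.333 FPKM (SD, n = 4; log2 change 1.11, limma adjusted p = 1.0e-05). HPS4, SRRD and TFIP11, between ASPHD2 and TPST2, did not pass. SEZ6L, a neuronal membrane protein gene 263 kb away, held 2.87 ± 0.247 and 2.15 ± 0.211 FPKM (-0.40, limma adjusted p = 0.017). The SEZ6L call was lost without untreated replicate 4 (limma adjusted p = 0.0539), and its sign turned in TPM. The kinase gene ADRBK2, now named GRK3, was called at a limma adjusted p of 0.0444 with overlapping groups (65.2 ± 1.17 and 73.8 ± 5.67 FPKM). On leaving out any 1 library other than IFN-γ replicate 4 it was lost, with limma adjusted p of 0.0756 to 0.110. It was also lost with the replicate number as a block (limma adjusted p = 0.0536), without the filter (0.0625), without the trend (0.0824), after quantile normalization (0.577) and in TPM without short RNA genes (0.525).

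MIATNB, a lincRNA on the same strand, overlaps the 3′ end of MIAT and runs on past it to chr22:26780207. It held 0.776, 0.624, 1.01 and 0.581 FPKM untreated and 0.856, 0.993, 0.768 and 0.681 FPKM with IFN-γ. Its groups overlapped, and it did not pass (log2 change 0.14, 95% interval -0.30 to 0.58, limma adjusted p = 0.664). The interval of MIATNB does not reach that of MIAT, -0.97 to -0.67, and the difference itself was not tested. How fragments of the shared stretch were divided between these genes is not given in the sources used here.

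**Figure D5:**
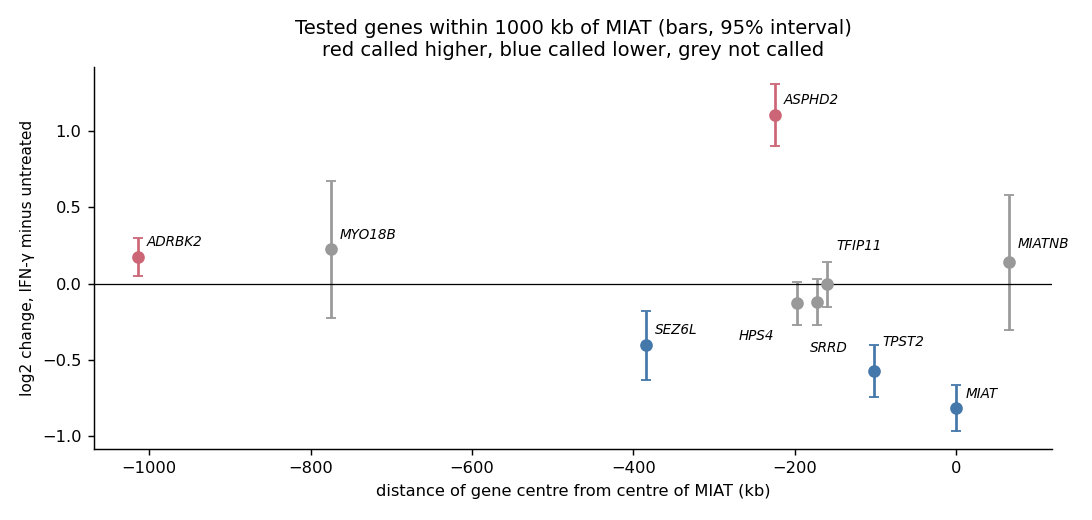
Log2 change with IFN-γ (95% interval as bars) of tested genes within 1000 kb of MIAT against the distance between gene centres in kb, on the FPKM scale; genes were chosen by the gap between gene ends, so the centre of ADRBK2 lies farther out. ASPHD2 (1.11) rises, TPST2 (-0.57) and MIAT (-0.82) fall, and HPS4, SRRD, TFIP11, MYO18B and MIATNB were not called; the falls of TPST2 and SEZ6L turn positive in TPM.

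The promoters of the members were searched for the binding letters of interferon-driven factors on both strands: TTCNNNGAA, the core of the interferon-γ-activated sequence, and GAAANNGAAA, the element bound by interferon regulatory factors. The windows, of 300 nt each and mostly upstream of the gene start, were those of RefSeq on GRCh38.p14, and over all 35116 promoters 7.66% held the first and 3.57% the second. MIAT, SF1, SRSF1 and CELF3 with 1 promoter each, and EZH2 with 2, held neither. By the same search IRF1 held the first and GBP1 the second. QKI had no entry. No match says only that these letters are not in this window.

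The genes whose profile over the 8 libraries was nearest to that of MIAT were found by Euclidean distance between log2 values centred on each gene's mean. Because the groups differ, such a distance mostly ranks genes by a like size of change. SCN3B, a sodium channel β subunit gene, was nearest with 0.152, where the median tested gene lay at 1.23. It held 19.9, 20.0, 19.1 and 20.2 FPKM untreated and 12.2, 12.3, 12.4 and 10.1 FPKM with IFN-γ, a log2 change of -0.75. Like MIAT it was lowest in IFN-γ replicate 4. PLCXD3 (0.239), TLE3 (0.246), LONRF2 (0.247) and TFAP2B (0.251) followed. TLE3 is a Groucho-type corepressor gene and TFAP2B encodes a transcription factor of sympathetic neurons, which went from 112 ± 1.54 FPKM to a mean of 69.2 FPKM. These 5 fell by 0.70 to 0.80 on the log2 scale in FPKM, and in TPM 4 of them turned positive while LONRF2 did not. For QKI the nearest were ZNF217 (0.0595) and ANKIB1 (0.0898), for CELF3 GALNT6 (0.124) and VGF (0.132). The nearest to SF1 were SLC4A7 (0.0394) and SRRM1 (0.0427), to SRSF1 BCLAF1 (0.0375) and PAK2 (0.0446), and to EZH2 PTPRA (0.088) and KIF22 (0.0951).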

How the data were processed

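RNA of 8 libraries was sequenced as ribosomal RNA-depleted total RNA, per the labels' protocols, and the growth protocol names SH-SY5Y too, while each sample carries the M17 label. The deposited table gives FPKM for each gene, made by the authors with TopHat2 on hg38 and Cuffdiff, per the submitters' processing notes. The sources used here give neither annotation nor options. FPKM is relative, and no counts were used.

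The 13598 genes averaging 0.5 FPKM or more were compared as log2(FPKM + 0.1), a scale that understates the change of low genes, by limma 3.58.1 with a mean-variance trend (R 4.3.3). Tests were two-sided at a threshold of 0.05 after Benjamini-Hochberg adjustment over every tested gene. Single values and ratios used exact permutation tests over libraries (70 arrangements). The members and lists were chosen with earlier results of these data known. Genes named were the 6 members, up to 4 called genes per list or, with fewer than 2 called, up to 2 of its most abundant, the 5 genes nearest to MIAT and 2 nearest to each partner, and genes within 1000 kb of MIAT. Some genes that this rule names are not reported here. Others (KHDRBS1, KHDRBS2, CELF2, CELF4, U2AF1, EED, SUZ12, EZH1, MALAT1, AL033543.1 and SNORD3A) were named after their values were seen. So were the genes called only without IFN-γ replicate 4. Of the symbols, 89.96% matched 1 gene of GENCODE release 29, from which positions and transcripts came; promoters came from RefSeq. Depth came from the spacing of low values, as 1 fragment per kilobase was worth 0.0492 to 0.0717 FPKM.

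The alternatives were each library left out, a replicate block, robust limma or limma without trend, TPM with and without short RNA genes, quantile normalization, median-of-ratios scaling, the filter dropped or set to 1 FPKM, and pseudocounts of 0.01 and 1. Tested on simulated data for IFN-γ against untreated with 13598 genes, 50 genes were changed at each size. Recovery was 50% at 1.25-fold, 68% at 1.5-fold, 96% at 2-fold and 100% at 4-fold, and 8 of 165 calls were false. Far fewer genes were changed there than the 3039 called in the data. Since the adjustment depends on that share, recovery in the data can differ.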

Additional observations from a re-analysis of the deposited data

Results flagged for a closer look

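Of 132 groups of 4 libraries looked at, 13 had a library far from the other 3, where chance gives about 1 in 20. In untreated replicate 3, QKI (4.06 FPKM) and SF1 (74.9 FPKM) were the lowest of their group and GBP1 (0.0397 FPKM) the highest. In IFN-γ replicate 4, ADRBK2 (65.4 FPKM), CHGB (111 FPKM), CREBBP (12.2 FPKM), JARID2 (17.3 FPKM) and SCN3B (10.1 FPKM) were the lowest and DCN (177 FPKM), SF3B6 (214 FPKM) and VEGFA (43.6 FPKM) the highest. DCN was also highest in untreated replicate 4 (146 FPKM), and MEG8 in IFN-γ replicate 1 (9.004 FPKM). So 8 of the 13 fell in IFN-γ replicate 4, and without that library MIAT lay 0.76 below the median gene.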

How the results depend on the processing

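Each member's change kept its direction and side of the threshold in 18 of 19 alternatives, apart from directions of changes that were not called, and the 5 ratios kept their direction in each of their 10. With any 1 library left out each ratio had an exact permutation p of 0.0286. That is the smallest value the test can then give, and it adds little to the absence of overlap between groups. Paired by replicate number, an exact sign-flip test of 4 pairs cannot go below 0.125, the value of each ratio, so it says nothing about the threshold. In TPM, MIAT was at -0.024 (limma adjusted p = 0.943), SF1 at 0.78 (0.0277, its sign turned), SRSF1 at 0.82 (0.0231) and EZH2 at 0.83 (0.0240), with 9555 genes called in all, 9536 of them higher, and 66 family genes. The median gene moved by 0.79 there. In TPM without short RNA genes, QKI was at 0.23 (0.0763) and CELF3 at 0.28 (0.0678), while the median gene stood at -0.098. QKI lay 0.33 and CELF3 0.38 above that median, against 0.33 and 0.37 in FPKM. Why the calls were lost was not tested. Called genes were 1809 higher and 1230 lower in FPKM, 1202 and 1760 in TPM without short RNA genes, and 1470 and 2564 after quantile normalization, where 22 family genes were called against 10. With 1 library left out, 7 to 19 family genes were called, with 2336 to 3855 of all genes, and both were highest without IFN-γ replicate 4.

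No label says that a replicate number marks a shared culture or batch, so replicate numbers were not taken as pairs. Deviations of same-numbered libraries correlated at -0.027, 0.079, 0.061 and 0.061. Those of differently numbered libraries ran from -0.094 to 0.086. With the replicate number as a block 2656 genes were called, MIAT had an adjusted p of 3.4e-04 and QKI of 0.0192, and no call on a member changed. Of the 10 family genes called, 9 kept their call under the block, SF3A2 lost it and SRSF5 gained it; ADRBK2 near MIAT also lost it.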
